A study of Salmo salar with 16 samples.

Results

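Marker genes of antigen-presenting and scavenger cells were followed across the spleens of Atlantic salmon, namely mrc1 (mannose receptor C-type 1), LOC106604844 (cd74a, the invariant chain of MHC class II) and zbtb46 (zinc finger and BTB domain containing 46). They were taken by name as 3 of 79140 named features in the count tables, and all 3 passed the filter on low counts. Spleens were taken after 37 days of feeding, and 16 libraries were sequenced, 4 per diet, with 1 fish per library. The yeast diets ACJ and ICJ held soybean meal at 40% and Cyberlindnera jadinii at 5%, autolyzed in ACJ and heat-inactivated in ICJ. SBM held soybean meal at 40% without yeast, and FM was the control diet based on fishmeal. The diets with soybean meal also held fishmeal, though less than FM, lacked its cellulose and differed from it in further ingredients. The yeast diets held less wheat gluten and potato starch than SBM. All fish were kept in fresh water. The spleens came from duplicated tanks and diets were given by tank, so an effect of tank cannot be told apart from one of diet, while the tests take the 4 fish on a diet as independent of each other.

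The mannose receptor binds glycans rich in mannose and fucose, such as those of microbial and yeast cell walls, and takes them into the cell. In mammals it is found on many tissue macrophages and also on liver sinusoidal and lymphatic endothelium, and in zebrafish mrc1a marks venous and lymphatic endothelium. CD74 holds the peptide groove of MHC class II until the molecule reaches the endosome, and is made by B cells, macrophages and dendritic cells. In the mouse, ZBTB46 is a transcription factor that marks classical dendritic cells and is also made by endothelium. The spleen of bony fish filters blood through sinusoids and macrophage-sheathed vessels and holds red cells, thrombocytes and lymphocytes besides.

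The deposited values are counts of fragments per gene. They summed to between 5013312 and 9075622 per fish over the named features. On these totals, 3 counts correspond to between 0.331 and 0.598 CPM, the counts scaled to the same total in every library. All other CPM given here also use TMM scaling (trimmed mean of M values) of the libraries. A gene was called a DEG in edgeR's quasi-likelihood test at a Benjamini-Hochberg adjusted p below 0.05 over all 28929 genes tested. Fold changes are log2 values of the first diet over the second, written as in SBM|FM, with standard errors (SE). In whole spleen, fewer cells of a type and less RNA per cell cannot be told apart.

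In ICSASG_v2, mrc1 lies on the minus strand of chromosome 29 (11837790 to 11855027) and has 31 merged exons with 5015 bp in all. The cd74a gene lies on the minus strand of chromosome 5 (37021325 to 37026611), with 9 merged exons and 1657 bp. The zbtb46 gene spans chromosome 13 from 15668698 to 15773398 on the minus strand, with 9 merged exons and 5283 bp, and LOC106566586 lies within its span on the opposite strand, which the counting kept apart. A second copy, LOC106600540, lies on chromosome 3 (45671827 to 45767708), and the newer RefSeq table gives the symbol zbtb46 to this ID.

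The members stood at very different levels. cd74a was the fifth most abundant of the tested genes, with a mean of 5405 CPM over the 16 fish and 3262 CPM per kb of exon. mrc1 ranked 49 with a mean of 1262 CPM, or 252 CPM per kb. zbtb46 ranked 7460 with a mean of 28.6 CPM, or 5.41 CPM per kb, so that cd74a stood 603 times and mrc1 46.5 times above it per kb. Each zbtb46 value rested on 87 to 285 counts, against 5409 to 12430 for mrc1 and 22432 to 53769 for cd74a. The second zbtb46 copy had a mean of 7.07 CPM, from 25 to 80 counts per fish.

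**Figure D1:**
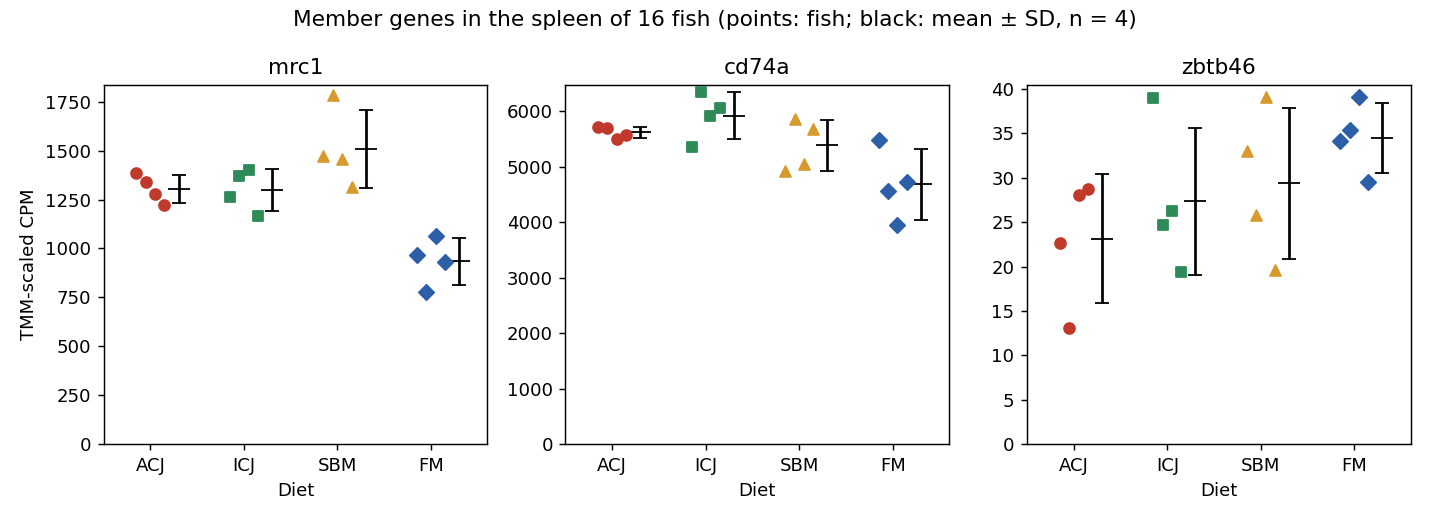
CPM of mrc1, cd74a and zbtb46 in each fish by diet, on linear axes from 0 (points, 1 per fish; black, mean ± SD, n = 4). The 4 FM fish lie below the 12 fish of the other diets for mrc1, between 777 and 1063 CPM, while the diets overlap in part for cd74a and zbtb46.

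The mannose receptor gene was higher in SBM and in ACJ than in FM, by log2 fold changes of 0.69 and 0.48, and in ICJ|FM a value of 0.48 did not pass the test. mrc1 had 1383, 1338, 1278 and 1222 CPM in ACJ replicates 1 to 4. In ICJ it had 1262, 1372, 1400 and 1165 CPM. In SBM the values were 1473, 1785, 1458 and 1315 CPM, and in FM they were 966, 777, 1063 and 931 CPM. All 12 fish with soybean meal were above all 4 FM fish, which held for 0.474% of the genes tested. The nearest fish were ICJ replicate 4, at 1165 CPM, and FM replicate 3, at 1063 CPM.

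Against FM, mrc1 averaged 1508 ± 198 CPM in SBM and 934 ± 119 CPM in FM (SD, n = 4 each), which was a log2 fold change of 0.69 (SE 0.10, 95% interval 0.49 to 0.89, adjusted p = 0.00629 in edgeR's quasi-likelihood test). This was the fifth smallest p among 28929 genes, and mrc1 was the only member among the genes called in SBM|FM, which were 0.432% of all genes. mrc1 is also named in the study's lists of DEGs, which were drawn from these fish, so this call is not independent of them. All 4 SBM fish were above all FM fish, as for 4.03% of genes (exact permutation test, two-sided p = 0.0286, the smallest that 4 against 4 allow). With any 1 fish of either diet left out the change stayed between 0.60 and 0.76 and the call held in 8 of 8 fits, at adjusted p-values of 0.0379 or less.

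For ACJ|FM, mrc1 averaged 1305 ± 70.6 CPM in ACJ against 934 ± 119 CPM in FM (SD, n = 4), with a log2 fold change of 0.48 (SE 0.10, 95% interval 0.28 to 0.69, adjusted p = 0.0428 in edgeR's quasi-likelihood test). It was again the only member called, where the genes called were 0.235% of all. The 4 ACJ fish were above the 4 FM fish, as for 3.49% of genes (exact p = 0.0286). This call was near the threshold. It held in 2 of 8 fits with a fish left out, those without FM replicate 1 and without ACJ replicate 4, and the adjusted p was between 0.0768 and 0.139 without FM replicate 2, 3 or 4 or ACJ replicate 1, 2 or 3. It was also lost when only the 8 fish of these diets were fitted (adjusted p = 0.11).

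For ICJ|FM the difference in mrc1 was of the same size but was not called. The ICJ mean was 1300 ± 108 CPM against 934 ± 119 CPM in FM (SD, n = 4), which was a log2 fold change of 0.48 (SE 0.10, 95% interval 0.27 to 0.68, adjusted p = 0.143 in edgeR's quasi-likelihood test). None of the members was called in ICJ|FM, where the genes called were 0.0104% of all, and the unadjusted p of mrc1 ranked 16 among all genes. The 4 ICJ fish lay above the 4 FM fish, as for 2.72% of genes (exact p = 0.0286). DESeq2 called mrc1 in this comparison (adjusted p = 0.00368). The 3 comparisons with FM share the same 4 FM fish.

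Between the soybean diets mrc1 did not pass the test. The log2 fold change was -0.21 in ICJ|SBM (SE 0.10, 95% interval -0.42 to -0.01, adjusted p = 0.967 in edgeR's quasi-likelihood test) and -0.21 in ACJ|SBM (SE 0.10, 95% interval -0.41 to -0.01, adjusted p = 0.716). ACJ and ICJ differed by 0.01 in mrc1 (SE 0.10, 95% interval -0.20 to 0.21). In each of these 3 comparisons the diets overlapped and 0% of genes were called, while 1445, 1995 and 1639 genes had an unadjusted p below 0.05 in ICJ|SBM, ACJ|SBM and ACJ|ICJ. The order of the mean levels was thus SBM, ACJ, ICJ and FM, and of the neighbours in this order only ICJ and FM did not overlap.

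**Figure D2:**
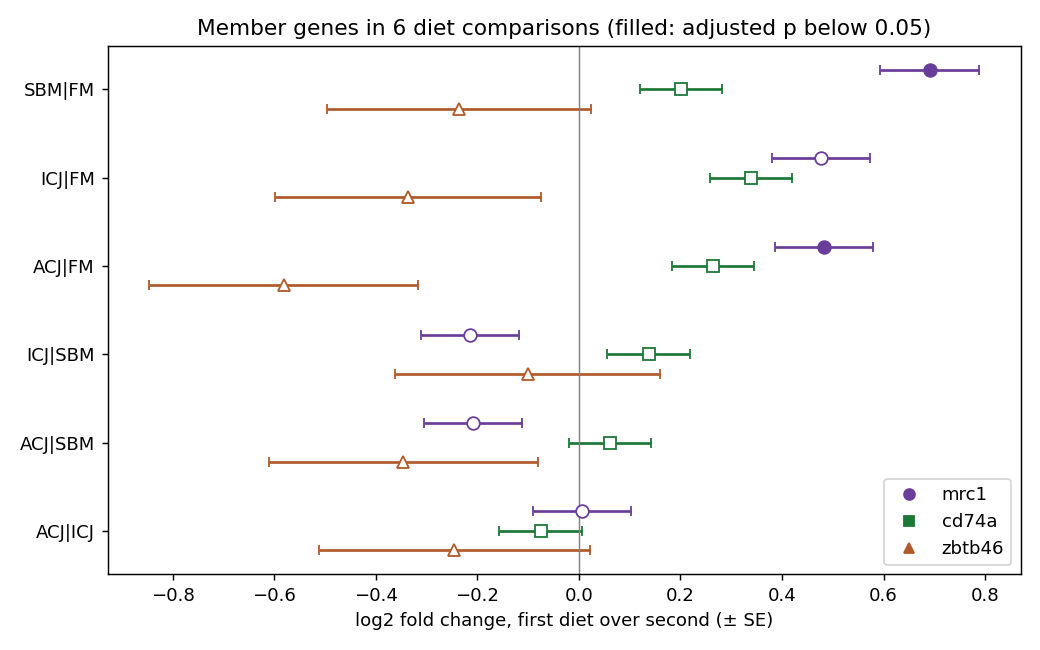
Log2 fold changes of the 3 members in the 6 diet comparisons, first diet over second, with bars of 1 SE and filled points at an adjusted p below 0.05 in edgeR's quasi-likelihood test. Only mrc1 in SBM|FM (0.69) and in ACJ|FM (0.48) is filled, and zbtb46 has the widest bars.

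The invariant chain gene averaged above FM in each soybean diet, without passing the test. cd74a had 5720, 5701, 5500 and 5574 CPM in ACJ replicates 1 to 4. In ICJ it had 5362, 6357, 5916 and 6065 CPM. SBM gave 4934, 5865, 5060 and 5688 CPM, and FM gave 5490, 4563, 3948 and 4736 CPM. FM replicate 1 reached the level of the other diets, and 9 of the 12 fish with soybean meal were above all FM fish. ACJ had the narrowest spread, with a mean of 5623 ± 105 CPM, against 4684 ± 635 CPM in FM (SD, n = 4).

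None of the differences in cd74a was called in edgeR's quasi-likelihood test. The log2 fold change was 0.20 in SBM|FM (SE 0.08, 95% interval 0.03 to 0.37, adjusted p = 0.246) and 0.34 in ICJ|FM (SE 0.08, 95% interval 0.17 to 0.51, adjusted p = 0.210). In ACJ|FM it was 0.26 (SE 0.08, 95% interval 0.09 to 0.43, adjusted p = 0.143). There all ACJ fish were above all FM fish, as for 3.49% of genes (exact permutation p = 0.0286). DESeq2 called cd74a in ICJ|FM with all fish. In edgeR's test the calls changed when FM replicate 1 was left out. Without it, cd74a was called in all 3 comparisons in edgeR's quasi-likelihood test, with log2 fold changes of 0.29 in SBM|FM (adjusted p = 0.0444), 0.42 in ICJ|FM (adjusted p = 0.0341) and 0.36 in ACJ|FM (adjusted p = 0.0225), and the genes called in SBM|FM then numbered 680 in place of 125. Among the soybean diets the log2 fold changes of cd74a were between -0.08 and 0.14, with adjusted p-values of 0.903 or more in edgeR's test.

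The zbtb46 gene averaged below FM in each soybean diet, also without passing the test. It had 22.7, 13.1, 28.0 and 28.7 CPM in ACJ replicates 1 to 4. In ICJ it had 39.0, 24.7, 26.3 and 19.4 CPM. SBM gave 33.0, 25.9, 39.2 and 19.6 CPM, and FM gave 34.1, 35.4, 39.1 and 29.5 CPM. The lowest fish was ACJ replicate 2, and in ICJ and SBM the highest fish had about the level of the highest FM fish. The FM fish had the narrowest spread, with 34.5 ± 3.95 CPM, while ACJ averaged 23.1 ± 7.23, ICJ 27.3 ± 8.28 and SBM 29.4 ± 8.50 CPM (SD, n = 4 each).

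The log2 fold change of zbtb46 was -0.58 in ACJ|FM (SE 0.27, 95% interval -1.15 to -0.01, adjusted p = 0.324 in edgeR's quasi-likelihood test). All 4 ACJ fish were below all 4 FM fish, as for 3.56% of genes (exact p = 0.0286). In ICJ|FM the value was -0.34 (SE 0.26, adjusted p = 0.733) and in SBM|FM -0.24 (SE 0.26, adjusted p = 0.742), both from edgeR's test. Without ACJ replicate 2 the log2 fold change in ACJ|FM was -0.37. The 95% intervals of the other comparisons were as wide, for example -0.91 to 0.22 in ACJ|SBM.

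The second zbtb46 copy had 5.56, 4.96, 7.08 and 5.32 CPM in ACJ replicates 1 to 4. In ICJ it had 5.44, 7.95, 5.23 and 5.11 CPM. SBM gave 7.53, 7.01, 10.99 and 6.67 CPM, and FM gave 7.86, 9.31, 11.1 and 6.001 CPM. Both yeast diets averaged below FM, with log2 fold changes of -0.57 in ACJ|FM (SE 0.22, adjusted p = 0.234 in edgeR's quasi-likelihood test) and -0.54 in ICJ|FM (SE 0.22, adjusted p = 0.455), while SBM|FM gave -0.09 (SE 0.21). Against SBM the values were -0.48 in ACJ|SBM (SE 0.22, adjusted p = 0.712 in edgeR's quasi-likelihood test) and -0.44 in ICJ|SBM (SE 0.22, adjusted p = 0.967). None of these was called, and the fish overlapped in each comparison. Fragments that match both copies equally were left out of the counts, so each value covers the parts of a copy that can be told apart.

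The label of macrophage marker was set against genes of known cell types, matched by symbol. Matches were found for 5 of 17 macrophage, 7 of 15 endothelial and 5 of 16 dendritic cell symbols, so each list covers only a part of its markers. Macrophage genes were present in every fish, with mpeg1 (perforin-2), cd68 and 4 genes for complement C1q chains tested, and marco at or near 0 in all fish. Summed over the list, they had 4178 to 5307 CPM in ACJ, 4762 to 5786 in ICJ, 4438 to 5740 in SBM and 3996 to 5453 in FM. None of the 6 tested macrophage genes was called in any comparison, where 0.432% of all genes or fewer were called. All 6 had positive log2 fold changes in SBM|FM, with a median of 0.27 against -0.01 over all genes. The most abundant was c1qb, with 1769 ± 252 CPM in SBM and 1485 ± 237 CPM in FM (SD, n = 4), which was a log2 fold change of 0.25 (SE 0.11, adjusted p = 0.306 in edgeR's test). LOC106591842 and c1qc, both C1q C chain genes, had log2 fold changes of 0.29 and 0.33, and c1qb_1 had 0.37. The values of the genes outside C1q were smaller, at 0.15 (SE 0.33) for mpeg1 and 0.07 (SE 0.10) for cd68. For cd68 the log2 fold change was -0.04 in ICJ|FM and -0.06 in ACJ|FM.

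Among endothelial genes, the hyaluronan receptors stab2 and lyve1b were called in SBM|FM, as mrc1 was. Of 7 tested endothelial genes, 2 were called in edgeR's test in SBM|FM, both higher in SBM, where 0.432% of all genes were called, and 0 in the other 5 comparisons. DESeq2 also called stab2 in ICJ|FM (adjusted p = 0.0228) and ACJ|FM (adjusted p = 0.0161) and lyve1b in ACJ|FM (adjusted p = 0.038). Of the genes called in SBM|FM, one was stab2, stabilin-2, a scavenger receptor for hyaluronan on sinusoidal endothelium in mammals. It had 254, 292, 248 and 225 CPM in SBM replicates 1 to 4 and 123, 111, 194 and 151 CPM in FM, a log2 fold change of 0.82 (SE 0.14, adjusted p = 0.0291 in edgeR's quasi-likelihood test). The other was LOC106561566, lyve1b, a hyaluronan receptor of lymphatic endothelium, with 44.6 ± 6.46 CPM in SBM and 28.7 ± 2.26 CPM in FM (SD, n = 4), which was a log2 fold change of 0.63 (SE 0.12, adjusted p = 0.0317). These calls held for stab2 in 4 and for lyve1b in 2 of the 8 fits that lacked a fish, and both were lost when only the 8 fish of SBM and FM were fitted (adjusted p = 0.0858 for stab2 and 0.0665 for lyve1b in edgeR's test). The most abundant gene of the list, LOC106566251 (stab1), had 325 ± 32.7 CPM in SBM and 227 ± 49.0 CPM in FM (SD, n = 4; adjusted p = 0.0921 in edgeR's test).

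Over all 16 fish, stab2 was also the gene most like mrc1 among 26552 genes whose mean log2 CPM reached 1 (Pearson r = 0.94 on log2 CPM). With the diet means removed r was 0.77, and over the 12 fish with soybean meal alone it was 0.87. Next came LOC106561388, named tyrosine-protein kinase SgK223-like in the study's list (r = 0.92), LOC106599680, a zinc finger protein gene (r = 0.92), cacb2, a subunit of voltage-gated calcium channels (r = 0.92), and LOC106573456, thrombospondin type-1 domain-containing protein 4-like (r = 0.91). The endothelial genes lyve1b, tek (the angiopoietin receptor) and stab1 ranked 13, 17 and 43. These coefficients are descriptions over libraries that share diets, scaling and depth, and the genes were picked for them, so no p is given.

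cacb2 is also near mrc1 on chromosome 29. Its span from 11675013 to 11784831 stops 52958 bp below the lowest coordinate of mrc1, with LOC106590132 at 0.243 CPM between them. Both genes are on the minus strand, so cacb2 lies downstream of mrc1. On the other side, LOC106590135 and LOC106590136 had r of 0.58 and 0.77 with mrc1 and ranked 1305 and 164. Beyond cacb2, nsun6 and LOC106590131 did not follow mrc1, with r of 0.09 and -0.37 and ranks of 10720 and 22492.

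Of the 7 endothelial genes compared, 4 had r above 0.8 with mrc1, against 0.339% of all genes, and the median r was 0.84. For the 6 macrophage genes the median was 0.55 and none was above 0.8, with r of 0.64 for c1qb, 0.60 for c1qb_1, 0.56 for c1qc, 0.55 for LOC106591842, 0.03 for mpeg1 and -0.07 for cd68. For c1qb, r was 0.57 with diet means removed and 0.53 over the 12 fish with soybean meal. Over the 12 fish with soybean meal the medians were 0.72 for the endothelial and 0.07 for the macrophage genes, against 0.00 over all genes. Whether each gene is confined in salmon spleen to the cell type of its list was not tested. The median r with cd74a was 0.37 for the endothelial and 0.53 for the macrophage genes. Endothelial genes that did not follow mrc1 over the 16 fish were LOC106561856 (vwf, von Willebrand factor, r = 0.23) and prox1 (r = -0.02), a transcription factor of lymphatic endothelium, at 7.69 and 2.06 CPM. With diet means removed their r with mrc1 was 0.61 and 0.35, and over the 12 fish with soybean meal it was 0.24 and 0.44.

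**Figure D3:**
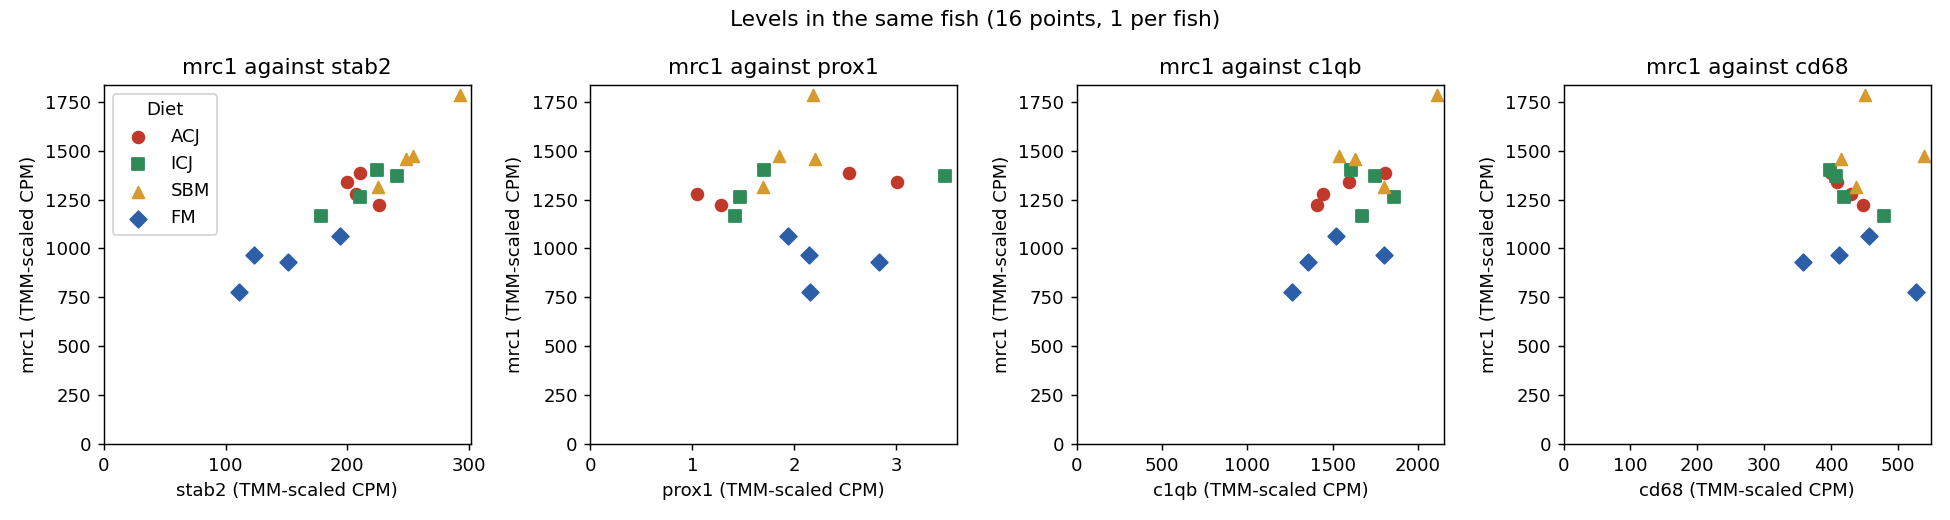
mrc1 against the genes with the highest and the lowest r with it in the endothelial list (stab2 and prox1) and in the macrophage list (c1qb and cd68), in CPM on linear axes from 0, with 1 point per fish coloured by diet (16 fish). On log2 CPM r is 0.94 for stab2, -0.02 for prox1, 0.64 for c1qb and -0.07 for cd68.

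The ratio of mrc1 to the summed endothelial genes was 1.51 to 1.62 in ACJ, 1.64 to 1.74 in ICJ, 1.62 to 1.79 in SBM and 1.44 to 1.60 in FM. Its ratio to the summed macrophage genes was 0.259 to 0.292 in ACJ, 0.201 to 0.294 in ICJ, 0.233 to 0.332 in SBM and 0.177 to 0.251 in FM. The summed endothelial genes themselves had 788 to 852 CPM in ACJ, 671 to 853 in ICJ, 805 to 997 in SBM and 519 to 736 in FM. Over the 16 fish both lists thus hold genes that followed mrc1 and genes that did not. In the endothelial list the latter were prox1 and vwf, on 6 to 21 and 20 to 93 counts per fish. In the macrophage list they were cd68 and mpeg1, at means of 437 and 782 CPM. With diet means removed r with mrc1 was 0.35 for prox1 and 0.61 for vwf, against -0.40 for cd68 and -0.14 for mpeg1. Whether macrophages, endothelium or both carried the difference was not tested.

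**Figure D4:**
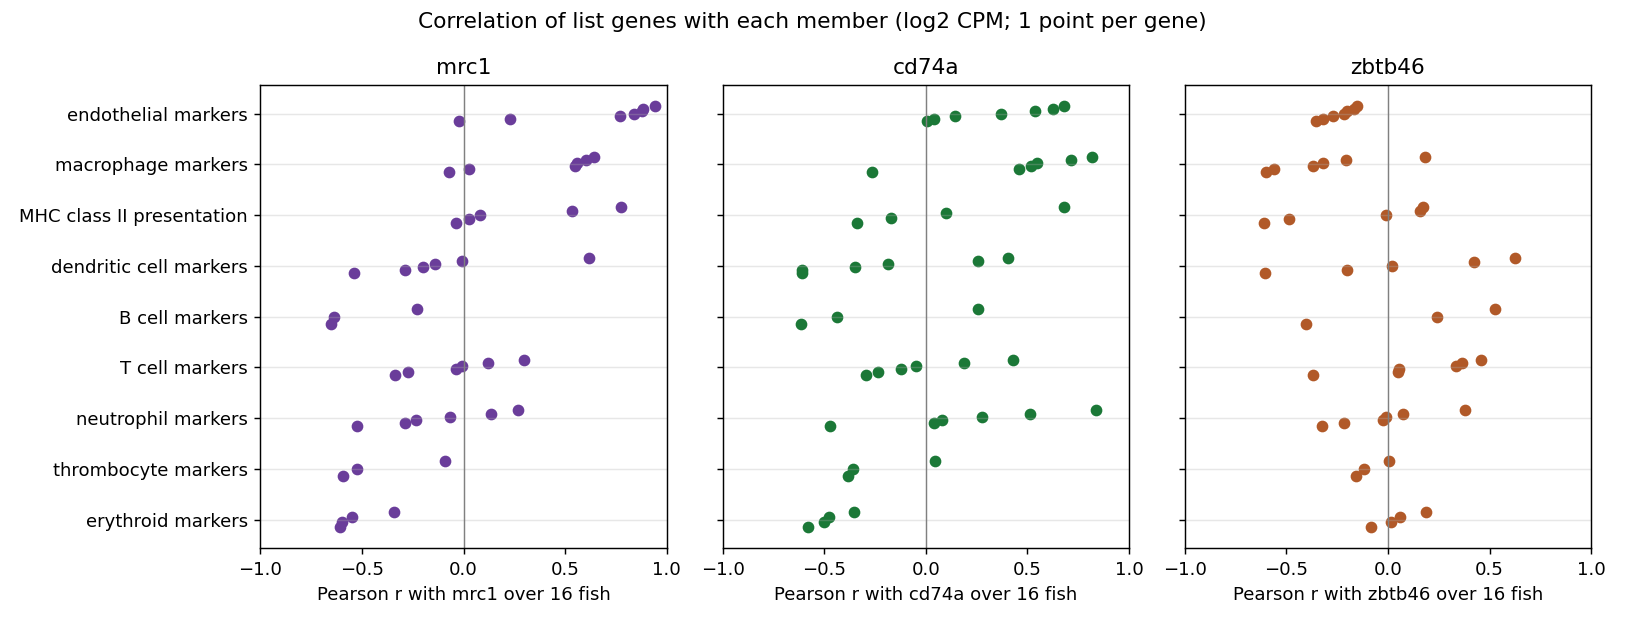
Pearson r of each gene of 9 cell type or pathway lists with mrc1, cd74a and zbtb46 over the 16 fish, on log2 CPM, with 1 point per gene. For mrc1, 4 of the 7 endothelial genes lie above 0.8 and no macrophage gene does.

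For antigen presentation by MHC class II, 5 genes were matched and tested, out of 10 symbols sought, and none was a class II alpha or beta chain gene. Besides cd74a the matched genes were lgmn (legumain, an endosomal protease that cleaves the invariant chain), ciita (the master activator of class II genes) and rfxank and rfxap, which bind class II promoters. In edgeR's test lgmn alone was called, in ACJ|FM and SBM|FM, where 0.235% and 0.432% of all genes were called. DESeq2 also called lgmn (adjusted p = 0.0173) and cd74a (adjusted p = 0.0421) in ICJ|FM. lgmn had 176, 187, 201 and 180 CPM in ACJ replicates 1 to 4, against 152, 113, 132 and 142 CPM in FM, a log2 fold change of 0.47 (SE 0.08, adjusted p = 0.0297 in edgeR's quasi-likelihood test). In SBM|FM the log2 fold change was 0.41 (SE 0.08, adjusted p = 0.0316), from 175, 182, 178 and 181 CPM in SBM. With a fish left out lgmn was called in 3 of 8 fits for ACJ|FM and in 1 of 8 for SBM|FM, and it was called in neither when only the 8 fish compared were fitted (adjusted p = 0.111 and 0.0858 in edgeR's test). ciita averaged 8.20 CPM in ACJ, 9.03 in ICJ, 9.76 in SBM and 9.35 in FM, with log2 fold changes against FM between -0.19 and 0.06. rfxank and rfxap were at 8.51 and 6.59 CPM over all fish and were not called.

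The genes most like cd74a were LOC106563730 (r = 0.95), LOC106611870 (r = 0.92), rcan2 (a regulator of calcineurin, r = 0.90), tmem59 (r = 0.88) and megf10 (an engulfment receptor, r = 0.88). With diet means removed r stayed between 0.74 and 0.95 for these 5 genes. LOC106563730 had 1343 CPM in ACJ, 1336 in ICJ, 1274 in SBM and 1122 in FM on average, and its log2 fold changes against FM were between 0.18 and 0.26, none called. Among list genes, csf3r, the receptor of granulocyte colony-stimulating factor, ranked 28 (r = 0.84) and the C1q gene c1qb_1 ranked 47 (r = 0.82).

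Of 8 dendritic cell genes, 7 were tested and none was called in any comparison, where 0.432% of all genes or fewer were called. LOC106579503 (flt3, the receptor of a growth factor for dendritic cells) averaged 87.7 CPM in ACJ, 83.0 in ICJ, 79.2 in SBM and 58.8 in FM, with a log2 fold change of 0.58 in ACJ|FM (SE 0.26, adjusted p = 0.311 in edgeR's test). id2 had 75.1, 77.6, 79.0 and 78.4 CPM on average in ACJ, ICJ, SBM and FM. irf4, also a factor of plasma cells, had a log2 fold change of -0.38 in ACJ|FM (adjusted p = 0.180). The median log2 fold change of the list against FM was -0.09 in ACJ, -0.20 in ICJ and -0.24 in SBM. Over all genes tested the medians were -0.003, -0.002 and -0.005. The list includes zbtb46 and its second copy, and its median in SBM is the value of zbtb46 itself. The median in ICJ is the value of irf4, and that in ACJ is the value of id2_1, on 3 to 15 counts per ACJ fish. flt3 and zbtb46, both dendritic cell markers in the mouse, had differences from FM of opposite sign in all 3 diets, none of which passed the test.

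The genes most like zbtb46 were rapgef2, an exchange factor of Rap GTPases (r = 0.93), LOC106611507 (r = 0.93), LOC106582632 (r = 0.92), LOC106563265 (r = 0.92) and LOC106588786 (r = 0.92), and r with diet means removed was between 0.89 and 0.96. None of these was called against FM in any diet. The second zbtb46 copy ranked 952 (r = 0.63). For the other dendritic cell genes compared, r with zbtb46 was 0.43 for irf4, 0.02 for batf3, -0.20 for id2 and -0.60 for flt3. Which cells of the salmon spleen carry zbtb46 was not tested.

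Among the members, cd74a and zbtb46 ran opposite to each other. Over the 16 fish Pearson's r was -0.61 (permutation p = 0.0133, adjusted to 0.04 over the 3 pairs) and Spearman's rho was -0.80 (permutation p = 0.00033, adjusted to 0.00099). Other genes had a more negative r. Counted from the highest r among 26551 genes, cd74a ranked 26200 with zbtb46, and zbtb46 ranked 25603 with cd74a. Without the 2 fish farthest from the median cd74a level, FM replicates 2 and 3, r was -0.53 (adjusted permutation p = 0.15) and rho -0.75 (adjusted permutation p = 0.00864). With diet means removed r was -0.51 (adjusted permutation p = 0.134) and rho -0.72 (adjusted permutation p = 0.00678). The centred values were permuted over all 16 fish and not within diets, so these p-values are approximate. For mrc1 all FM fish lay below the fish of the other diets, and over the 12 fish with soybean meal its r was -0.12 with cd74a (permutation p = 0.718) and 0.17 with zbtb46 (permutation p = 0.586).

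**Figure D5:**
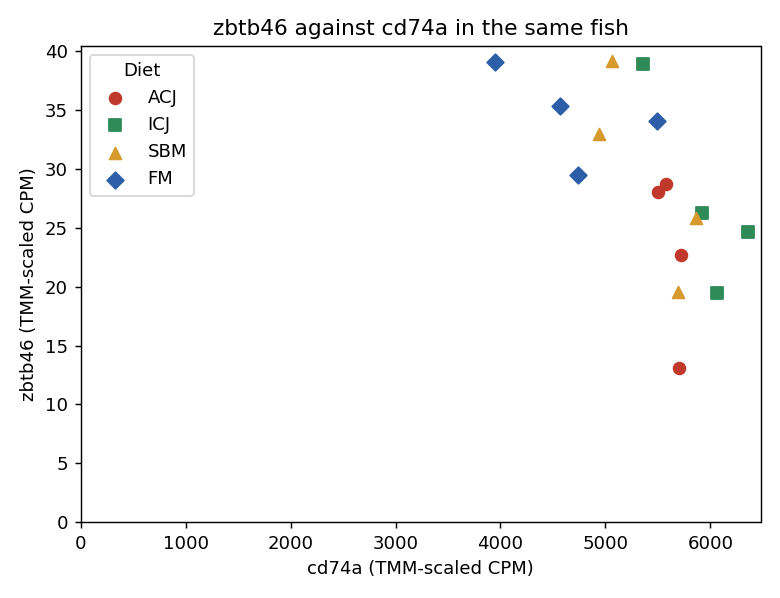
zbtb46 against cd74a in the 16 fish, in CPM on linear axes from 0, with 1 point per fish coloured by diet. Fish with more cd74a had less zbtb46 (rho = -0.80), and the lowest zbtb46 value, 13.1 CPM, is ACJ replicate 2.

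No gene was called in edgeR's test in the lists of other cell types, where 0.432% of all genes or fewer were called in each comparison. The 4 erythroid genes, led by the beta globin LOC100136576, summed to 10450 to 12050 CPM in ACJ, 4282 to 18690 in ICJ, 5026 to 8760 in SBM and 11110 to 21560 in FM, with median log2 fold changes of -1.19 in SBM|FM, -0.58 in ICJ|FM and -0.67 in ACJ|FM. The 3 thrombocyte genes, led by LOC106600877 (itga2b), summed to 250.0 to 344 CPM in ACJ, 169 to 314 in ICJ, 168 to 248 in SBM and 276 to 452 in FM. The 3 B cell genes, led by cd79b, summed to 201 to 247 CPM in ACJ, 236 to 289 in ICJ, 249 to 269.6 in SBM and 277 to 389 in FM. T cell genes, led by cd3e, summed to 179 to 196 CPM in ACJ, 174 to 198 in ICJ, 192.5 to 216 in SBM and 175 to 221 in FM. Neutrophil genes, led by LOC100136365 (lyz), summed to 581 to 1873 CPM in ACJ, 654 to 986 in ICJ, 550 to 845 in SBM and 548 to 807 in FM. Of the stroma genes only nkx3-2 was tested (14.6 CPM), and no exocrine pancreas gene was matched. With 18 hemoglobin genes removed before scaling, mrc1 had a log2 fold change of 0.69 in SBM|FM and 0.48 in ACJ|FM, both called. The part of the other cell types in these differences was not tested.

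A further pair of genes was taken from the study's own lists of DEGs, which were drawn from these fish, and so gives no independent evidence. The same lists also name mrc1, stab2, tek, stab1 and lyve1b. LOC106611874, a receptor 1-like gene for macrophage colony-stimulating factor, had 551, 620, 698 and 693 CPM in ICJ replicates 1 to 4, against 518, 476, 418 and 400 CPM in FM, a log2 fold change of 0.50 (SE 0.10, adjusted p = 0.143 in edgeR's quasi-likelihood test). Its log2 fold change was 0.32 in SBM|FM and 0.20 in ACJ|FM, so that its highest diet was ICJ and that of mrc1 was SBM. The protease gene catk, cathepsin K, had log2 fold changes of 0.45 in SBM|FM, 0.42 in ICJ|FM and 0.48 in ACJ|FM, none called. Over the 16 fish their r with mrc1 was 0.51 for LOC106611874 (rank 2067) and 0.78 for catk (rank 129), and with diet means removed it was -0.04 for LOC106611874 and 0.40 for catk.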

How the data were processed

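Spleen RNA of 16 fish was sequenced as stranded mRNA libraries. BBDuk was used by the authors for trimming and HISAT for alignment to ICSASG_v2 (version 2.1.0 in the processing notes), and featureCounts for counting fragments per gene on the reverse strand. The file headers name version 1.5.1 and the notes 1.4.6-p1. The deposited values are these counts for 79141 features, not normalized. Fragments with several matches or several overlapping genes were left out. One mitochondrial feature without a name, with 0.205% to 0.475% of the counts, was dropped. No fold change or p-value of the authors was used, and their lists of DEGs served only for gene names and for choosing LOC106611874 and catk.

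Genes were filtered by edgeR's filterByExpr by diet (28929 kept) and scaled by TMM. One model with a mean per diet held all 16 fish (edgeR 4.0.16, glmQLFit with robust estimation, glmQLFTest), checked on simulated data. The common biological coefficient of variation was 0.199. The SE is the absolute log2 fold change over the square root of F, and 95% intervals use the t distribution with the degrees of freedom of the fit. CPM are TMM-scaled. Exact permutation tests were two-sided on log2 CPM with a prior count of 2. Correlations used 100000 permutations over the fish compared, not within diets, so those with diet means removed have approximate p-values. The floor of 3 counts covers counting error only, while the intervals include the spread between fish. No 2 libraries of a diet agreed within sampling noise (chi-square per gene of 4.75 or more).

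The 3 members and all gene lists were chosen with earlier results of these data known. List genes were matched by symbol in the files or by the RefSeq symbol of the gene ID (assembly Ssal_v3.1), and matching by descriptive words was not possible with these tables. Chromosome numbers were assigned through the RefSeq chromosomes of the same IDs, and 93.27% or more of the IDs of each sequence agreed on one chromosome. Named genes are the members, the 5 genes most like each, called and most abundant genes of the antigen presentation, macrophage and dendritic lists, and the most abundant gene of each other list. The called endothelial genes, the neighbours of mrc1, the other list genes given with a correlation, the second zbtb46 copy, LOC106611874 and catk are named beyond that and were chosen after their values were seen.

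Alternatives were DESeq2 1.42.0, the replicate number as a block, RLE scaling, no filter on low counts, only the 8 fish compared, removal of 18 hemoglobin genes, each fish left out and, for correlations, diet means removed or 2 fish left out. Correlations over the 12 fish with soybean meal, and the alternatives for lgmn, stab2 and LOC106561566, were added after seeing the data. The tank of each fish and the protein measurements were not used here.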

Additional observations from a re-analysis of the deposited data

Results flagged for a closer look

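One value stood apart from the other fish of its diet. The second zbtb46 copy, LOC106600540, had 7.95 CPM in ICJ replicate 2, from 48 counts, while the other ICJ fish had 5.44, 5.23 and 5.11 CPM. The gap to the nearest fish was 0.883 of the range of the diet, above the critical value of Dixon's test for 4 samples at the 95% level. It was the only one of 16 sets of 4 fish tested, over the members and this copy in the 4 diets, to pass, and chance alone passes a share of about 0.05 of such sets.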

How the results depend on the processing

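mrc1 in SBM|FM kept its direction and its call in all 14 alternatives, with log2 fold changes of 0.60 to 0.76. Under DESeq2 the genes called numbered 734 for SBM|FM, 99 for ICJ|FM, 472 for ACJ|FM, 6 for ICJ|SBM, 5 for ACJ|SBM and 5 for ACJ|ICJ, and mrc1 (0.47, adjusted p = 0.00368) and cd74a (0.33, adjusted p = 0.0421) were called by DESeq2 in ICJ|FM. Without a filter 5 genes were called for ICJ|FM and 127 for ACJ|FM, and mrc1 in ACJ|ICJ was -0.0022. With only the 8 fish compared the numbers were 32 for SBM|FM, 0 for ICJ|FM, 4 for ACJ|FM, 7 for ACJ|SBM and 2 for ACJ|ICJ, and mrc1 in ACJ|FM, at 0.48, lost its call (adjusted p = 0.11 in edgeR's test). The calls of stab2 (adjusted p = 0.0858), LOC106561566 (0.0665) and lgmn (0.0858) in SBM|FM and of lgmn in ACJ|FM (0.111) were also lost in these fits. RLE scaling and removal of the hemoglobin genes changed no call of a member. The causes of these changes were not tested.

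Same-numbered fish are different animals, and the deviations of same-numbered fish correlated between -0.215 and 0.297 over the 6 comparisons, so the numbers do not pair the fish. With the replicate block 0 genes were called for ICJ|FM and 39 for ACJ|FM, and mrc1 in ACJ|FM was 0.48 (adjusted p = 0.0584 in edgeR's test). SBM|FM had 110 calls with the block, 81 of them also called without it.

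With 1 fish left out, the genes called were 5 to 680 for SBM|FM (lowest without FM replicate 4, highest without FM replicate 1), 0 to 38 for ICJ|FM, 2 to 558 for ACJ|FM, 0 to 1 for ICJ|SBM, 0 to 0 for ACJ|SBM and 0 to 1 for ACJ|ICJ. mrc1 was between 0.40 and 0.55 in ACJ|FM, between 0.40 and 0.54 in ICJ|FM and between -0.0428 and 0.0527 in ACJ|ICJ. cd74a was between 0.13 and 0.29 in SBM|FM, 0.27 and 0.42 in ICJ|FM and 0.19 and 0.36 in ACJ|FM, and zbtb46 was between -0.32 and 0.0704 in ICJ|SBM.

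Pearson's r of cd74a with zbtb46 was -0.508 with diet means removed, -0.53 without 2 fish and -0.568 over the 12 fish with soybean meal. It did not pass in these 3 settings, while Spearman's rho passed in each (adjusted permutation p = 0.00678, 0.00864 and 0.0427). With diet means removed the p is approximate, as the permutations were not within diets. Pearson's r of mrc1 with zbtb46 was 0.0459 with diet means removed and 0.171 over the 12 fish, and that of mrc1 with cd74a was -0.115 over the 12 fish, each of the opposite sign to the value over all 16. The values of zbtb46 rest on 87 to 285 counts per fish and those of its second copy on 25 to 80.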
